A study of Mus musculus with 2 samples.

Results

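Bulge and germ stem cells of the hair follicle were picked from back skin of a wildtype and an Eppk1-/- mouse, 1 animal each. Of 17492 cells that passed the cell filter, 304 met the rule, 184 of them wildtype and 120 Eppk1-/-. A cell was taken when Krt5, Krt14, Krt15, Dsp, Perp and Sfn together made up at least 1% of its UMIs (unique molecular identifiers, which count captured RNA molecules), when Krt1 and Krt10 together and the collagen genes Col1a1, Col1a2 and Col3a1 together with Dcn each stayed below 0.5%, and when it held at least 3 UMIs of Lgr5, Cd34, Lhx2, Krt24, Angptl7 and Fgf18 combined. That sum also had to exceed the sum of Sostdc1, Postn, Ptn, Megf6 and Fst, genes of the outer root sheath, and Krt75 had to stay below 3 UMIs. These genes chose the cells, so their levels below describe the selection and are not results about it.

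Both mice were untreated and of the C57BL/6J background, the knockout by backcrossing, and whole skin was dissociated into single cells and fixed before sequencing with the 10x Flex assay, which counts transcripts through pairs of gene-specific probes. Ages were not given in the sources used here. Each genotype is 1 mouse and 1 library: no test between genotypes was possible, genotype cannot be told apart from the mouse, the piece of skin, its hair cycle stage or the time of day, and every interval below covers counting error only. The question was what differs between follicle stem cells that express epiplakin, the cytoskeletal linker protein encoded by Eppk1, and those that lack it.

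The bulge is the lowest permanent part of the hair follicle and houses slow-cycling stem cells in its outer layer, while cells of its inner layer anchor the resting hair and send inhibitory signals such as Fgf18. The hair germ lies just beneath it, next to the dermal papilla, and is the first part to divide when a new hair cycle starts. BMP signals hold these cells at rest and WNT signals call them into growth. Cd34 marks the outer bulge in mice, Lgr5 the lower bulge and germ, and Lhx2, Sox9 and Tbx1 are transcription factors of the stem cells.

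The 184 wildtype cells held 780483 UMIs outside mitochondrial genes and the 120 Eppk1-/- cells 521418. Their median was 3177 UMIs and 1712.5 genes per wildtype cell and 3389 UMIs and 1884 genes per Eppk1-/- cell, with 529 to 33859 UMIs over all members. Follicle stem cells were 2.07% (95% Clopper-Pearson interval 1.79 to 2.39) of wildtype cells and 1.39% (1.16 to 1.66) of Eppk1-/- cells. As a share of the keratinocytes that passed the same gates the values were 4.57% (3.95 to 5.26) and 4.35% (3.62 to 5.17), which overlap, while fibroblasts made up 16.7% of wildtype and 29.3% of Eppk1-/- cells. The libraries were pooled before droplet formation and 1211 droplet barcodes occurred in both. Of the members, 26 wildtype and 17 Eppk1-/- cells sat in such droplets.

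Lhx2 was detected in 84.2% of wildtype and 93.3% of Eppk1-/- members, Cd34 in 72.8% and 65.0%, and Lgr5 in 51.1% and 65.8%. Krt24, a bulge keratin, was detected in 34.2% and 21.7%, Angptl7, a secreted angiopoietin-like protein, in 31.5% and 12.5%, and Fgf18, a growth factor that keeps follicles at rest, in 26.1% and 41.7%. Cd34 alone is not specific, since 97.8% of wildtype and 96.0% of Eppk1-/- fibroblasts thinned to 2000 UMIs per cell held it, whereas Lhx2 was found in 0.369% and 0.0855% of the same fibroblasts. In the wildtype, 45 members held Krt24 with Angptl7, 18 held Krt24 without it and 13 Angptl7 without Krt24, and the Eppk1-/- numbers were 10, 16 and 5. Angptl7 and Fgf18 met in 1 wildtype and 5 Eppk1-/- members. All are genes of the sum that chose the cells. At the threshold, the 14 wildtype cells with 3 UMIs of the selection genes had 109 CPM (summed UMIs of the gene scaled to 1e+06 UMIs in all) of Tbx1 and 1377 CPM of Sox9, genes outside the rule, and the 24 cells just outside with 2 UMIs had 66.3 and 873 CPM. The 6 Eppk1-/- cells with 3 UMIs had 322 CPM of Tbx1 and 875 CPM of Sox9, and the 13 with 2 UMIs had 56.2 and 1704 CPM. Sox9 was thus higher just outside the threshold than just inside it in the Eppk1-/- library.

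Some genes that the rule did not use were higher in the members than in other keratinocytes of both libraries. The comparison cells were 1359 wildtype and 1123 Eppk1-/- keratinocytes without any UMI of the follicle genes, and 1572 and 926 sheath keratinocytes, in which the outer root sheath genes summed to at least 3 UMIs and to no less than the selection genes. Tbx1 reached 243 CPM in wildtype and 297 CPM in Eppk1-/- members, against 67.6 and 58.3 CPM in sheath keratinocytes and 0.513 and 0 CPM in keratinocytes without follicle markers. Smoc1, a secreted calcium-binding protein, reached 176 and 276 CPM, against 33.0 and 40.0 CPM in sheath keratinocytes. By the lower of the values of both libraries, Smoc1, Tbx1, Col8a2, Shisa2, Pdzrn4, Il31ra, Adcy1, Tnc, Hmcn1 and Ccn2 stood highest over keratinocytes without follicle markers, which had at most 3.24 CPM of any of them. Sox9 was at 1687 and 1553 CPM in members, against 1161 and 1171 CPM in sheath keratinocytes. The log2 ratio of members over sheath keratinocytes was therefore 0.54 in wildtype for Sox9 and 1.85 for Tbx1.

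The keratins of the members followed another order. Krt15, the keratin of resting basal and bulge cells, was at 9950 CPM in members of the wildtype and 11277 CPM in those of the knockout, at 5474 and 5305 CPM in sheath keratinocytes and at 2578 and 2894 CPM in keratinocytes without follicle markers. Krt14, a keratin of basal cells, ran the other way with 3298 and 3694 CPM in members and 9749 and 9796 CPM in keratinocytes without follicle markers. Both are gate genes, so this is a description of the chosen cells.

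**Figure D1:**
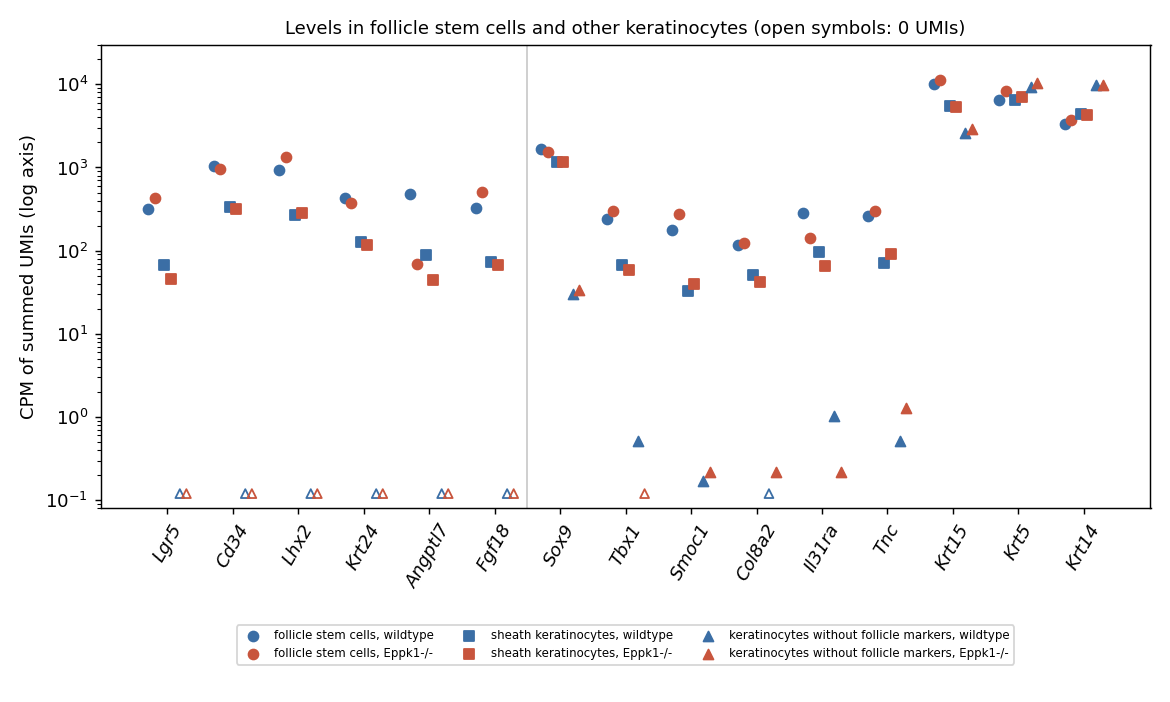
CPM of summed UMIs on a log axis for the 6 selection genes (left of the line) and 9 other genes, in follicle stem cells (circles), sheath keratinocytes (squares) and keratinocytes without follicle markers (triangles), wildtype in blue and Eppk1-/- in red, with open symbols for 0 UMIs. Tbx1, Smoc1, Col8a2, Il31ra and Tnc, which were picked for their height over keratinocytes without follicle markers, are highest in follicle stem cells of both libraries. Angptl7 is the selection gene with the widest gap between genotypes (474 and 69.0 CPM).

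Clustering of the 304 cells by Leiden, with the selection genes among the features, gave 6 clusters. Cluster 2 (80 cells) and cluster 5 (31 cells) carried Cd34, Krt24, Angptl7 and Grem1, 4 of the 6 outer bulge markers, each at least 0.5 higher on the log2 scale than in the remaining members and detected in at least 25% of the cells, and are called outer bulge-like. Cluster 2 was led by Angptl7, Ccn1 and Ccn2, and cluster 5 by Sparc, S100a4 and Grem1. By the same limits both also carried Krt6a of the inner bulge, Tgm5 of the germ and Col6a1 of fibroblasts, cluster 5 carried Lgr5, Krt5, Krt14 and Thbs1 as well, and the outer bulge marker Nfatc1 was lower in cluster 5 than in the remaining members (91.9 and 231 CPM). Of the 4 markers behind the name, Cd34, Krt24 and Angptl7 are selection genes. Cluster 6 (37 cells) carried Lgr5, Gli1, Msx2 and Hoxc13, 4 of the 7 hair germ markers, was led by Gjb2 and Hoxc13, and is called germ-like. Of these 4, Lgr5 is a selection gene. The cluster also carried Lrig1 and Lgr6 of the isthmus and upper follicle and Thbs1 of the basal interfollicular markers, and the germ marker Tgm5 was lower in it than in the remaining members (58.6 and 351 CPM). Cluster 1 (98 cells) was led by Fgf18 and Cst6 and had the inner bulge markers Krt6a, Krt80 and Fgf18 but also the suprabasal markers Sbsn, Krt77 and Calml3 and, of other types, Cd34, Nfatc1, Tgm5 and Mgst1, and stays unnamed. Cluster 4 (29 cells) was led by Nppc and Krt18 and carried Lrig1, Thbs1 and, of the germ markers, Cdh3, Gli1 and Msx2, none of which was among its leading genes, so that it too stays unnamed. The rule for naming was set after these clusters were seen.

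Cluster 3 (29 cells) went against the label. It was led by Epgn, Serpinb2 and Ptgs2, carried Krt14, Ly6a and Thbs1 of the basal interfollicular markers, Plet1 of the isthmus and upper follicle (2717 CPM, against 525 CPM in the remaining members), Krtdap and Krt77 of the suprabasal markers, Cdh3, Timp3 and Scd1, and had a median of 8675 UMIs per cell, against 2868.5 to 4362 in the other clusters. Its wildtype cells had 180 CPM of Lhx2 and its Eppk1-/- cells 554 CPM, below the 854 CPM or more of every other cluster. Its cells are kept, as the rule asks. Without them the log2 ratio of Eppk1-/- over wildtype moved by over 1.5 times for several genes named below, from 1.43 to 2.47 for Fn1, from -1.38 to -0.78 for Krt77, from -0.72 to -1.47 for Krt16, from -0.66 to -4.15 for Mki67, from 1.07 to 3.13 for Cd74 and from -2.33 to 0.50 for Dpt. The gate genes Dcn (-1.87 to -0.10) and Col3a1 (-0.67 to -0.01) moved as well.

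Cluster 1 was low in Krt14, a gate gene. Its wildtype cells had 331 CPM of Krt14 and its Eppk1-/- cells 859 CPM, while in the other clusters Krt14 lay between 2969 and 7040 CPM. Krt15, also a gate gene, was at 15692 and 15378 CPM in the same cells and at 17363 and 18315 CPM in cluster 5.

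**Figure D2:**
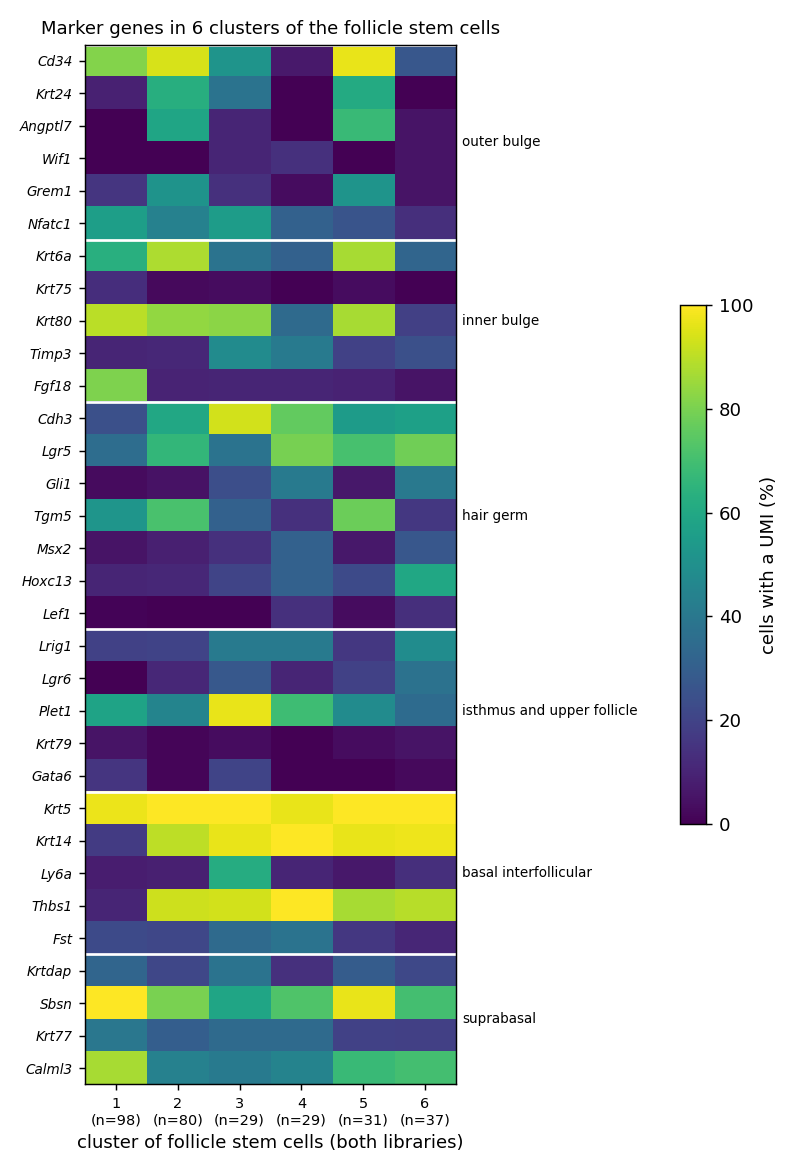
Share of cells with at least 1 UMI (colour, in %) for marker genes (rows, grouped by the cell type they mark) in the 6 clusters (columns, n = 98, 80, 29, 29, 31 and 37 cells of both libraries). Fgf18 is common in cluster 1 alone. Krt24 and Angptl7 are most common in clusters 2 and 5, Ly6a in cluster 3 and Hoxc13 in cluster 6. Krt24 was also found in 37.9% of cluster 3 and Hoxc13 in 31.0% of cluster 4.

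Since Angptl7, Ccn1 and Ccn2 differed between genotypes, cluster sizes were compared only after the clustering was repeated without the genes that differed by 0.5 or more, an alternative added after the data were seen. It gave 7 clusters. The cluster that held most cells of the Angptl7 cluster made up 27.2% (20.9 to 34.2) of wildtype and 19.2% (12.6 to 27.4) of Eppk1-/- members, the main Fgf18 cluster 22.8% (17.0 to 29.6) and 30% (22.0 to 39.0), and the germ-like one 12.0% (7.65 to 17.5) and 15% (9.14 to 22.7). A smaller cluster of 25 cells, 23 of them also from the Fgf18 cluster, made up 8.70% (5.05 to 13.7) and 7.5% (3.49 to 13.8). For each cluster the intervals of the libraries overlap.

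Eppk1 had the lowest ratio of the 3151 genes compared. Wildtype members held 776 CPM (606 UMIs) and Eppk1-/- members 105 CPM (55 UMIs), a log2 ratio of -2.87 (95% interval -3.31 to -2.48). The gene lies on chr15:76101488-76120195 of GRCm38. It was detected in 69.0% of the wildtype members and 26.7% of the Eppk1-/- members, and after thinning to 2000 UMIs in 59.9% (51.6 to 67.7) of 152 and 15.8% (9.33 to 24.4) of 101 cells, 32 and 19 shallower cells being left out. Thinned Eppk1-/- fibroblasts and leukocytes, which should lack the gene, gave 3.08% and 2.76%, at median depths of 6144 and 4725 UMIs before thinning, and those of the wildtype gave 9.07% and 3.76%, at 6356 and 5420 UMIs. Which part of the transcript the probes read is not given in the sources used here, so the UMIs left in Eppk1-/- cells say nothing of the protein. The ratio was -3.16 in sheath keratinocytes and -4.04 in keratinocytes without follicle markers. It was below 0 in all 6 clusters, from -5.55 in cluster 3 to -1.56 in the germ-like cluster, and was -2.35 without cluster 3, where Angptl7 (-2.82), Klf15 (-2.63) and Fkbp5 (-2.51) were among the genes that were lower still.

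The other plakins, large proteins that tie intermediate filaments to junctions, stayed within 0.5. Dst, the hemidesmosomal linker, went from 1717 to 1319 CPM (-0.38, interval -0.51 to -0.25) and Ppl, the periplakin gene, from 338 to 270 CPM (-0.32, -0.63 to -0.02). Plec, the plectin gene, went from 682 to 790 CPM (0.21, 0.02 to 0.40), and Dsp, a gate gene for desmoplakin, from 3794 to 4290 CPM (0.18, 0.10 to 0.26). For Macf1 (-0.03, -0.26 to 0.21) and Evpl (0.04, -0.39 to 0.47) the counting intervals include 0.

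Across genes, 3151 were compared, those with a UMI in at least 25% of the members of either library and at least 50 UMIs in all. A gene could thus pass through the library in which it was high, so the counts and the extreme ratios below depend in part on this rule. Of these, 218 (6.92%) were higher in Eppk1-/- members by a log2 ratio of 0.5 or more and 171 (5.43%) lower by as much, and for 185 (5.87%) and 140 (4.44%) the counting interval excluded 0 as well. Above 0 lay 53.4% and below 0 lay 46.6%. The median log2 ratio was 0.02. By each class's own detection rule, 0.277% of 3254 genes were higher and 0.983% lower in sheath keratinocytes, and 0.602% and 1.28% of 2822 genes in keratinocytes without follicle markers. Of the members' 3151 genes, 0.222% were higher and 1.59% lower by as much in sheath keratinocytes, and 1% and 2.59% of the 3087 with at least 50 UMIs in keratinocytes without follicle markers. Those classes hold several times more UMIs than the members, and whether that alone narrows their ratios was not tested. All 3 classes come from the same 2 libraries, so none replicates another. The same holds for the clusters of the members, and a cluster ratio given below as above or below 0 can have a counting interval that includes 0.

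**Figure D3:**
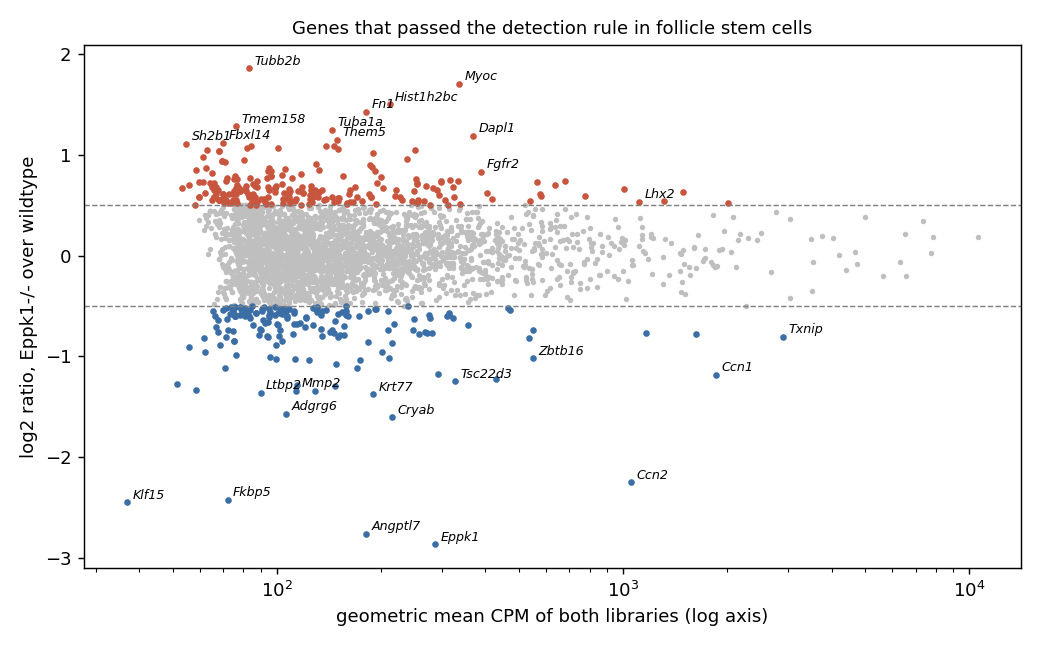
Log2 ratio of Eppk1-/- over wildtype (vertical) against the geometric mean CPM of both libraries (horizontal, log axis) for the 3151 genes tested in follicle stem cells, 1 point per gene, with dashed lines at 0.5 and -0.5. The 171 lower genes (blue) include Eppk1, Angptl7, Klf15, Fkbp5 and Ccn2 at the bottom, and the 218 higher genes (red) include Tubb2b, Myoc and Hist1h2bc at the top.

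After Eppk1, the lowest ratio was that of Angptl7, with 370 UMIs (474 CPM) in wildtype and 36 UMIs (69.0 CPM) in Eppk1-/- members, a log2 ratio of -2.76 (-3.32 to -2.28). It is a selection gene, so it can move cells in or out of the set. Within the outer bulge-like clusters it was at 1515 and 251 CPM in cluster 2 and at 1258 and 338 CPM in cluster 5. Klf15, a transcription factor of metabolic control, was at 88.4 and 15.3 CPM (69 and 8 UMIs; -2.45, -3.79 to -1.47). Fkbp5, a co-chaperone of the glucocorticoid receptor, was at 169 and 30.7 CPM (132 and 16 UMIs; -2.42, -3.31 to -1.71). Both were below 0 in every cluster with at least 10 UMIs of the gene, 4 for Klf15 and 5 for Fkbp5. Ccn2, a matricellular protein and YAP target, was at 2295 and 481 CPM (1791 and 251 UMIs; -2.25, -2.45 to -2.06).

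The remaining lowest genes were Cryab, a small heat shock protein (375 and 123 CPM), Adgrg6, an adhesion receptor (185 and 61.4 CPM), Krt77, a suprabasal keratin (306 and 117 CPM), Ltbp2, a matrix protein that binds microfibrils (145 and 55.6 CPM), and Mmp2, a matrix protease (182 and 71.0 CPM). Cryab and Krt77 rested in part on single cells, since 1 wildtype cell held 27.0% of the Cryab UMIs and 1 held 26.8% of the Krt77 UMIs. Adgrg6 was below 0 in all 6 clusters and Ltbp2 in all 4 with at least 10 UMIs, but Cryab (0.95) and Mmp2 (0.62) were above 0 in cluster 2 and Krt77 (0.74) in cluster 4. The counting interval of Adgrg6 included 0 in clusters 1, 3, 5 and 6, and that of Ltbp2 in clusters 2, 5 and 6. The ratio of Cryab was -0.80 with each cell thinned to 2000 UMIs, that of Krt77 -0.55 with at least 2 UMIs of the selection genes, and that of Mmp2 -0.66 with clusters weighted by their wildtype shares.

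The highest gene was Tubb2b, a beta-tubulin, with 43.6 CPM (34 UMIs) in wildtype and 159 CPM (83 UMIs) in Eppk1-/- members, a log2 ratio of 1.86 (1.28 to 2.49). Tuba1a, an alpha-tubulin, was at 93.5 and 222 CPM (1.25, 0.82 to 1.69). Hist1h2bc, a histone H2B gene, was at 126 and 357 CPM (1.503, 1.15 to 1.87) and was above 0 in all 6 clusters. Myoc, which encodes the secreted protein myocilin, was at 186 and 606 CPM (1.70, 1.42 to 2.00), and Fn1, the fibronectin gene, at 110 and 297 CPM (1.43, 1.04 to 1.83). Myoc was above 0 in 4 of the 5 clusters with at least 10 UMIs, cluster 5 (10 and 2 UMIs; -0.84, -4.32 to 1.14) being the exception, and its ratio was 1.10 with each cell thinned to 2000 UMIs. In fibroblasts these genes were at 587 and 930 CPM for Myoc and at 2270 and 4460 CPM for Fn1, and a part of fibroblast RNA in the members' values was not tested. For Fn1, 1 wildtype cell held 33.7% and 1 Eppk1-/- cell 26.5% of the UMIs. Cluster 3 held 57 of its 86 wildtype UMIs and cluster 4 held 64 of its 155 Eppk1-/- UMIs, and the ratio was 2.47 without cluster 3 and 2.85 without the highest doublet scores. Tmem158, Dapl1, Them5, Fbxl14 and Sh2b1 completed the 10, with ratios of 1.28, 1.19, 1.15, 1.12 and 1.11. Dapl1 was at 245 and 558 CPM, and 1 wildtype cell held 26.2% of its UMIs. It was lower in cluster 3 (39 and 10 UMIs; -0.98, -2.20 to -0.002) and above 0 in the other 3 clusters with at least 10 UMIs.

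**Figure D4:**
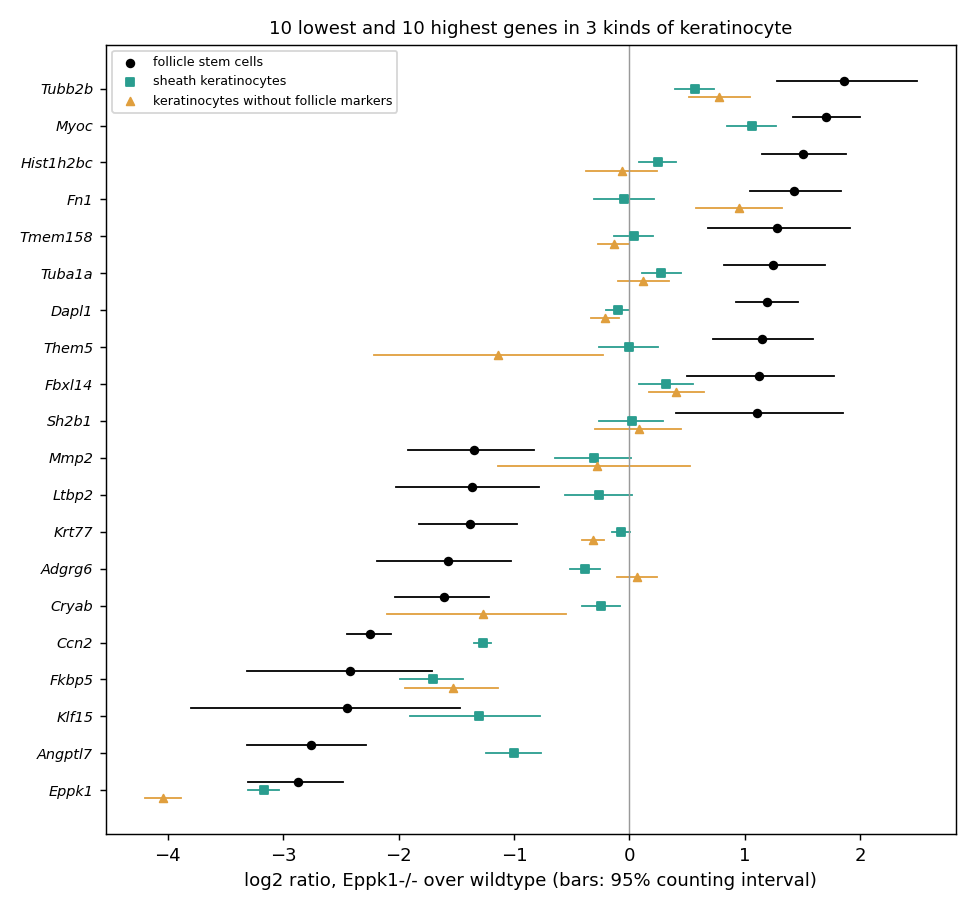
Log2 ratio of Eppk1-/- over wildtype with 95% counting intervals for the 10 lowest and 10 highest genes of the follicle stem cells (black), in sheath keratinocytes (green) and in keratinocytes without follicle markers (orange), classes with under 50 UMIs of a gene being left out. Eppk1 and Fkbp5 are below 0 in all 3, whereas Tmem158 (0.04 in sheath keratinocytes) and Sh2b1 (0.02) are near 0 outside the follicle stem cells.

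Of 15 measured bulge genes outside the rule (at least 50 UMIs), 5 lay above 0 and 10 below, and 1 was higher by 0.5 or more and 3 were lower, beside 8.14% and 9.6% of all 5501 genes with as many UMIs (5.09% and 5.27% with an interval off 0). The median was -0.12, beside 0.01 over all genes, of which 50.9% lay above and 49.1% below 0. The lower ones were Grem1, a secreted BMP antagonist, at 200 and 123 CPM (-0.70, -1.15 to -0.27; -0.23 with clusters weighted by their wildtype shares and -1.29 without Cd34 in the rule), Cd200, an immune-regulatory surface protein, at 161 and 99.7 CPM (-0.69, -1.19 to -0.22), and Foxc1, a transcription factor of quiescence, at 286 and 201 CPM (-0.50, -0.85 to -0.16). Hopx, a homeodomain protein of bulge cells, was at 419 and 324 CPM (-0.37, -0.65 to -0.10). The 1 higher gene, Tcf7l1, a WNT-pathway repressor, was at 46.1 and 65.2 CPM (0.50, -0.22 to 1.22; -0.089 without Cd34 in the rule). Runx1, a transcription factor of stem cell activation, was at 202 and 268 CPM (0.41, 0.07 to 0.74). Of the selection genes, Lhx2 was at 925 and 1337 CPM, and its ratio was above 0 in all 6 clusters. Wif1, a WNT inhibitor, had 3 UMIs in wildtype and 38 in Eppk1-/- members, 31 of them in cluster 4.

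All 9 measured hair germ markers were above 0, with a median of 0.54, and 5 were at 0.5 or more, beside 50.9% and 8.14% of all 5501 genes. For only 1 of those 5, Tgm5, a transglutaminase, did the counting interval exclude 0, at 255 and 409 CPM (0.68, 0.39 to 0.97), and its ratio was 0.48 with each cell thinned to 2000 UMIs. In these cells Tgm5 did not follow the germ-like cluster: it was at 592 and 643 CPM in the outer bulge-like clusters 2 and 5 and at 58.6 CPM in cluster 6. Its share of thinned cells was 40.1% in wildtype and 41.6% in Eppk1-/- members. Dlx3, a homeobox factor, had 32 UMIs in wildtype and 34 in Eppk1-/- members (0.67, -0.07 to 1.41), and Msx2, another, had 34 and 33 (0.54, -0.20 to 1.27). With every cell thinned to 2000 UMIs the median was 0.12. The same genes had medians of -0.20 in sheath keratinocytes and -0.34 in keratinocytes without follicle markers.

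Of 7 measured inner bulge markers, 3 were lower by 0.5 or more, each with an interval below 0, and 6 lay below 0, beside 5.27% and 49.1% of all 5501 genes, while the 1 higher marker was the selection gene Fgf18, which chose the members. Timp3, an inhibitor of matrix proteases, was at 234 and 95.9 CPM (-1.28, -1.77 to -0.83) and Krt6a, a keratin of the inner bulge and companion layer, at 1520 and 890 CPM (-0.77, -0.93 to -0.62), while the selection gene Fgf18 was at 327 and 502 CPM (0.62, 0.37 to 0.88). The median of the 7 measured genes was -0.24. Krt6a differed in direction between clusters: it was lower in cluster 1 (3008 and 1179 CPM) and cluster 4 (488 and 42.9 CPM), at 2196 and 1967 CPM in cluster 2, and higher in cluster 6 (80.3 and 372 CPM; 2.16, 0.97 to 3.60). Krt16 was at 778 and 472 CPM, but 1 wildtype cell held 33.6% of its UMIs, and the mean over cells gave a ratio of 0.03.

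Of 24 measured genes that respond to glucocorticoids 8 were lower by 0.5 or more, each with a counting interval below 0, and 2 were higher with an interval above 0, beside 5.27% and 5.09% of all 5501 genes, and the median was -0.25. Beside Fkbp5 and Klf15 the lower genes were Tsc22d3, an anti-inflammatory leucine zipper protein (504 and 211 CPM; -1.25, -1.57 to -0.95), Cebpd, a transcription factor (439 and 194 CPM; -1.18, -1.52 to -0.86), Zbtb16, a zinc finger repressor (784 and 385 CPM; -1.02, -1.26 to -0.79), Glul, the glutamine synthetase gene (291 and 159 CPM), Mt1, a metallothionein (2136 and 1243 CPM), and Errfi1, a feedback inhibitor of EGF receptors (710 and 424 CPM). Bcl6 (446 and 648 CPM) and Rhob (798 and 1262 CPM) were the higher genes, though Bcl6 was at 0.34 as a mean over cells and Rhob at 0.31 without Cd34 in the rule. Dusp1 (-0.35), Sgk1 (-0.09), Per1 (-0.15) and the receptor gene Nr3c1 (-0.13) stayed within 0.5. Tsc22d3, Cebpd, Zbtb16 and Mt1 were below 0 in all 6 clusters. In sheath keratinocytes the ratios were -1.70 for Fkbp5, -1.16 for Tsc22d3 and -0.78 for Zbtb16, with a list median of -0.20. Txnip, an arrestin-like inhibitor of glucose uptake, was at 3823 and 2186 CPM (-0.81, -0.91 to -0.71) and was below 0 in 5 of 6 clusters, cluster 3 (993 and 1242 CPM) being the exception.

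Promoter sequences of genes from this list and from the YAP list were chosen for a match after the ratios were known. The RefSeq promoter table of GRCm38.p6 held 10 of 16 genes looked up, and the 250 bases before 1 annotated start were searched on both strands for GGAATG (the core bound by TEAD factors), CACGTG (an E-box), the glucocorticoid receptor site and TGTTCT (a part of that site). These occur in 12.6%, 6.02%, 0.387% and 16.1% of all 32851 promoter windows of that length. Below, capitals mark the match. The coordinates given are those of the printed stretches, not of the motifs. The E-box of Fkbp5 starts 169 bases before the start, within chr17:28486150-28486399, minus strand. Klf15 has an E-box 228 and another 172 bases before the start in that table, within chr6:90462336-90462365 and chr6:90462392-90462421, plus strand. Mt1 holds the receptor motif 94 bases before the start in that table, within chr8:94178987-94179016, plus strand. Both genes have a longer annotated span (Klf15 chr6:90461043-90491803, Mt1 chr8:94178883-94180327), so these stretches lie inside it. Ccn1 holds the TEAD core, as its reverse complement, 103 bases before its start, within chr3:145649986-145650235, minus strand.
Fkbp5: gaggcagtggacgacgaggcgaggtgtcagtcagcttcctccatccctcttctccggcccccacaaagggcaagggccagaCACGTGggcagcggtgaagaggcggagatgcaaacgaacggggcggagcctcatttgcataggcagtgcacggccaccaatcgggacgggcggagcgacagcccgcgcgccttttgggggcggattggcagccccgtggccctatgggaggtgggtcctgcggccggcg
Klf15: ctcccgaggtccCACGTGgtctgcacttcg
Klf15: tagaacccgtctCACGTGcgcatcggagga
Mt1: cactatagGGACATGATGTTCcacacgtca
Ccn1: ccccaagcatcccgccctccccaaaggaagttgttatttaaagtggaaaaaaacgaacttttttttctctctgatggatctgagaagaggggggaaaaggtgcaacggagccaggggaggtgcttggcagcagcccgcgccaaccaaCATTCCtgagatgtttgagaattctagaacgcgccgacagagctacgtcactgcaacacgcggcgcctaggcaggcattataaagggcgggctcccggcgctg
A match is a description of these letters and shows no binding. Fkbp5 and Klf15 share the E-box, and the receptor motif and TGTTCT were in neither of these windows. The TEAD core was also found before Axl and before Errfi1 of the glucocorticoid list, and Tsc22d3, Glul and Errfi1 held neither the E-box, the receptor motif nor TGTTCT. F3 and Angptl7 held none of the motifs searched, the TEAD core included.

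YAP and TEAD, which turn on growth and matrix genes in stretched or spread cells, had 7 of 19 measured targets and partners lower by 0.5 or more and 1 higher, beside 9.6% and 8.14% of all 5501 genes, with a median of -0.13. Ccn1, a matricellular protein like Ccn2, was at 2788 and 1227 CPM (2176 and 640 UMIs; -1.18, -1.31 to -1.06). Dlc1 was at 75.6 and 19.2 CPM (59 and 10 UMIs; -1.92, -3.11 to -0.9998; -0.93 with each cell thinned to 2000 UMIs), and Axl, a receptor tyrosine kinase, at 200 and 115 CPM (-0.79, -1.25 to -0.36). Ccn2, Ccn1, Dlc1 and Axl are among the 7 lower genes, 6 of which had an interval below 0. The other lower genes and the 1 higher gene, whose interval includes 0, are not named here. Among targets within 0.5, Amotl2 (0.10), Ajuba (0.03) and Crim1 (-0.08) had intervals that include 0. Yap1 itself was at 274 and 203 CPM (-0.43, -0.78 to -0.09) and its relative Wwtr1 at 278 and 290 CPM. By cluster, Ccn2 was at 5889 and 1183 CPM in cluster 2 and at 5111 and 1352 CPM in cluster 5, but at 205 and 173 CPM in cluster 1. Ccn1 was below 0 in 5 of 6 clusters and stood at 1363 and 3841 CPM in cluster 5, the exception. In keratinocytes without follicle markers Ccn2 was near absent, with 3.08 and 3.24 CPM.

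**Figure D5:**
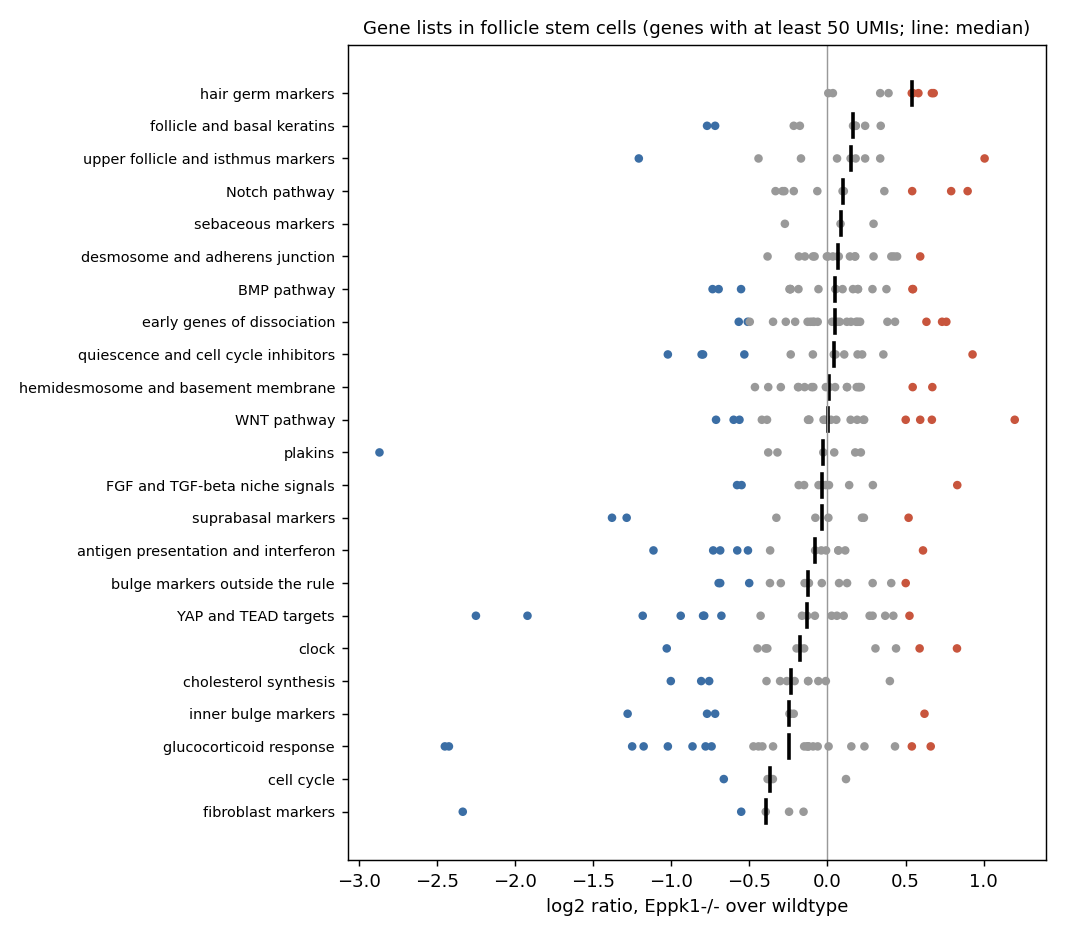
Log2 ratio of Eppk1-/- over wildtype (horizontal) for each gene with at least 50 UMIs (points) in 23 gene lists (rows), with the list's median as a black line, blue points at -0.5 or less and red points at 0.5 or more. Hair germ markers have the highest median (0.54), fibroblast markers the lowest (-0.40), and the glucocorticoid list reaches furthest below 0 after the plakins, whose lowest point is Eppk1.

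In the BMP pathway, 2 of 19 measured genes were higher and 3 lower by 0.5 or more, beside 8.14% and 9.6% of all 5501 genes. The lower genes were Bmp2 and the antagonists Grem1 and Fst (-0.55), and Fst, like the antagonist Sostdc1, is one of the genes that the rule set against the selection genes. The ligand Bmp2 was at 320 and 192 CPM (-0.74, -1.09 to -0.40), though 1 wildtype cell held 22.4% of its UMIs, and the inhibitory Smad7 at 146 and 213 CPM (0.54, 0.15 to 0.93). Under single alternatives these fell short of 0.5, Bmp2 being at -0.28 with each cell thinned to 2000 UMIs, Smad7 at 0.05 as a mean over cells and Fst at -0.35 without the highest doublet scores. By cluster, Bmp2 was lower in cluster 1 (104 and 23 UMIs; -1.86, -2.61 to -1.23) and cluster 4 (33 and 22 UMIs; -1.08, -1.94 to -0.27). In cluster 2 (0.16, -0.60 to 0.87) and cluster 3 (-0.32, -1.09 to 0.37) its interval included 0. The BMP target genes Id1 (0.05), Id2 (-0.24) and Id3 (0.16) stayed within 0.5. Of 20 measured WNT genes 4 were higher and 3 lower, 2 and 2 of them with an interval off 0, beside 5.09% and 5.27% of all 5501 genes. Ctnnb1, the beta-catenin gene, was at 633 and 955 CPM (0.59, 0.41 to 0.78; 0.42 with each cell thinned) and above 0 in all 6 clusters, and the ligand Wnt10b was at 28.2 and 65.2 CPM (22 and 34 UMIs; 1.20, 0.39 to 2.05). The receptors Fzd6 (155 and 94.0 CPM) and Fzd1 (199 and 130 CPM) were lower. Axin2, a WNT target, had 32 and 34 UMIs (0.67, -0.07 to 1.41). In the Notch pathway 3 of 11 measured genes were higher, beside 8.14% of all genes, and none was lower. The higher genes were the ligands Jag2, at 136 and 253 CPM (0.90, 0.52 to 1.28), and Dll1, at 93.5 and 136 CPM (0.54, 0.05 to 1.03), and the feedback inhibitor Nrarp, at 73.0 and 127 CPM (0.79, 0.26 to 1.33). Hes1, a Notch target, was at 726 and 595 CPM (-0.29, -0.49 to -0.09). Jag2 was above 0 in all 6 clusters, between 0.81 and 1.01, but its counting interval included 0 in clusters 1, 5 and 6.

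Of 19 measured genes of attachment to the basement membrane 2 were higher and none lower by 0.5 or more, beside 8.14% and 9.6% of all 5501 genes, with a median of 0.01. The higher ones were Itga3, a laminin-binding integrin (160 and 255 CPM; 0.67, 0.31 to 1.04), and its partner Cd151 (204 and 297 CPM; 0.55, 0.22 to 0.87), but Itga3 was at 0.40 with each cell thinned to 2000 UMIs and Cd151 at 0.35 without cluster 3. Col17a1, a hemidesmosomal collagen needed by bulge stem cells, was at 4634 and 4187 CPM (-0.15, -0.22 to -0.07), and Itgb4 was at 577 and 581 CPM. Among 18 measured genes of desmosomes and adherens junctions Ctnnb1 alone passed 0.5, upward, beside the same shares, and Perp, a gate gene, was at 4205 and 4215 CPM. Of 9 measured keratins of the follicle and basal layer, Krt6a and Krt16 were lower by over 0.5, beside 9.6% of all genes, and Krt5, a gate gene, was at 6541 and 8283 CPM (0.34, 0.28 to 0.40).

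Of 12 measured genes of cholesterol synthesis 3 were lower by 0.5 or more and none higher, beside 9.6% and 8.14% of all 5501 genes, with a median of -0.24. Cyp51, which removes a methyl group from lanosterol, was at 136 and 67.1 CPM (-1.003, -1.61 to -0.45), and at -0.65 without cluster 3. The medians of these genes were -0.30 in sheath keratinocytes and -0.90 in keratinocytes without follicle markers. Of 11 measured clock genes 2 were higher and 1 lower by 0.5 or more, beside 8.14% and 9.6% of all 5501 genes, and 4 lay above and 7 below 0, with a median of -0.17. Cry2, a repressor of the clock, was at 142 and 69.0 CPM (-1.03, -1.63 to -0.49), and Nfil3, a repressor of clock output, was at 0.59 (0.38 to 0.80), or at -0.60 and 0.26 as a mean over cells.

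Cell cycle genes were scarce. Of 27 cell cycle genes in the files 4 reached 50 UMIs, and 1 cell in each library held most of the Mki67 UMIs, 87.8% of 41 in wildtype and 88.2% of 17 in Eppk1-/- members. Mki67 was detected in 3.26% and 2.50% of the members. Pcna, a replication and repair clamp, was at 368 and 399 CPM (0.12, -0.15 to 0.38). Cdkn1a, a cell cycle inhibitor, was at 1048 and 890 CPM (-0.24, -0.40 to -0.07). Of 13 measured genes in the list of quiescence and cell cycle inhibition 1 was higher by 0.5 or more and 4 were lower, beside 8.14% and 9.6% of all 5501 genes. The higher gene was Rbl2, a retinoblastoma relative of resting cells, at 51.3 and 97.8 CPM (0.93, 0.31 to 1.57). The lower genes were Zbtb16 (-1.02), Txnip (-0.81), Foxo3 (-0.53, -1.08 to -0.02) and Ccnd1 (-0.80, -1.72 to 0.01). Ccnd1 is a cyclin gene and not an inhibitor, so the count of 4 is not one of inhibitors alone. The ratio of Rbl2 was 0.44 with each cell thinned to 2000 UMIs.

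Of the suprabasal markers, which summed to 5980 and 6810 CPM and were led by Lgals7, 1 of 8 measured was higher by 0.5 or more (Sbsn, 0.52) and 2 were lower (Krtdap, -1.29, and Krt77, -1.38), beside 8.14% and 9.6% of all 5501 genes. With each cell thinned to 2000 UMIs Sbsn was at 0.38 and Krtdap at -0.09. Several markers of other cell types rested on single cells. The 10 fibroblast markers summed to 1652 and 1214 CPM in wildtype and Eppk1-/- members, led by Sparc, which the outer bulge-like cluster 5 also expressed, and none of the 10 was at 0. Dpt, a dermal matrix gene, had 109 and 14 UMIs, 40.4% of the former in 1 cell, and without the 5% of cells with the highest doublet scores its ratio changed from -2.33 to 0.13. The 10 immune markers summed to 185 and 403 CPM. Cd74, the most abundant, had 69 and 97 UMIs, of which 1 cell held 73.9% and 75.3%, and Ptprc had 0 and 3. Endothelial markers summed to 6 and 2 UMIs, and Cdh5 and Cldn5 were at 0. Of the melanocyte markers Mitf alone exceeded 3 UMIs in a library, and Tyr and Sox10 were at 0. Krt8 had 19 and 44 UMIs and Krt18 4 and 13, with the Merkel cell genes Krt20 and Atoh1 at 0. The part of such cells in the results above was not tested.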

How the data were processed

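Per the labels and the study's methods, the authors processed both libraries with Cell Ranger 8.0.1 on mm10 (GRCm38) and deposited UMI counts per gene and cell, without normalization. Cells were required to hold between 200 and 45000 UMIs, between 100 and 7500 genes and no more than 10% of UMIs from mitochondrial genes, which kept 8875 of 9179 wildtype and 8617 of 8811 Eppk1-/- cells. No doublets were removed; cells with the highest 5% of doublet scores were left out as an alternative.

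UMIs outside 13 mitochondrial genes were summed over the cells of a class and scaled to CPM. The log2 ratio of Eppk1-/- over wildtype had 0.5 UMIs added, with an exact conditional 95% interval, which covers counting error and not the spread between cells or mice. No count model was fitted. Genes detected in 25% or more of either library's members, with 50 or more UMIs in all, were tested against a size of 0.5. The genes named were those of the selection rule, the plakins, the 10 highest and 10 lowest ratios, the 10 genes highest over keratinocytes without follicle markers, up to 4 extremes of each gene list, and list members chosen for their role. The members and lists were chosen with earlier results of these data known. Clustering used scanpy 1.11.5 (2000 variable features, 20 principal components, 15 neighbours, resolution 0.5). The calculation was tested on simulated data. Some results are not reported here.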

Additional observations from a re-analysis of the deposited data

Results flagged for a closer look

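For the 7 genes listed here the log2 ratio of Eppk1-/- over wildtype was at least 0.5 in size in the follicle stem cells. It had the opposite sign, also at 0.5 or more, in keratinocytes without follicle markers. They are not all such genes, and Dll1 (0.54 and -0.52) is another. Of the 218 higher genes, 209 had at least 50 UMIs in keratinocytes without follicle markers, and 9 were lower there by 0.5 or more. Of the 171 lower genes, 156 had as many UMIs there, and 2 were higher. Of all 3087 genes compared there, 2.59% were lower and 1% higher by as much. The difference between the classes was not tested, since each genotype is 1 library. Them5 was at 1.15 in follicle stem cells and -1.14 in keratinocytes without follicle markers. Cst6, a cysteine protease inhibitor, was at 1.01 and -1.41, and 1 member held 57.3% of its UMIs in wildtype and 1 held 71.4% in the Eppk1-/- library. Without Cd34 in the rule the ratio of Cst6 in follicle stem cells was -0.87, so the signs were then no longer opposite. Nrarp was at 0.79 and -1.24. The early response genes Socs3 and Egr2 were at 0.73 and -0.62 and at 0.76 and -0.58. Sbsn, a suprabasal gene, was at 0.52 and -2.05. Under single alternatives the ratio in follicle stem cells fell short of 0.5, to as low as 0.32 for Socs3, 0.49 for Egr2 and 0.38 for Sbsn. Dpt was at -2.33 and 0.81, and 40.4% of its wildtype UMIs in follicle stem cells came from 1 cell. Its ratio in follicle stem cells was 0.94 without Cd34 in the rule, where the signs were likewise no longer opposite.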

How the results depend on the processing

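No paired analysis was possible because each genotype is 1 library, and leaving out a replicate could not be done for the same reason. Of 2070 recalculated ratios over 138 genes, 1916 stayed inside the gene's counting interval, 141 left it, and 13 of ratios past 0.5 in size changed sign. Of 345 recalculated list medians over 23 lists, 334 stayed inside the counting interval of the gene nearest the median and 11 left it. The share of follicle stem cells in the wildtype became 1.78% with at least 5 UMIs of the selection genes, and 1.35% without Cd34 among them, where the Eppk1-/- share became 0.975%. Without Cd34, 352 genes were higher and 259 lower. Under a detection limit of 10% of members the counts were 442 and 498, and with no share required 448 and 528, so that lower genes then outnumbered higher ones, as they did not under the 25% rule (218 and 171). Over all alternatives the counts ran from 150 to 448 higher and from 132 to 528 lower genes. The lowest, 150 and 132, came from thinned cells, in which 1456 genes were compared in place of 3151, and 58 and 52 of those genes were among the 218 and 171. As a mean over cells, 282 were higher, 140 of them shared with the 218. The Eppk1 ratio was -2.35 without cluster 3, an alternative added after the data were seen. Ratios that changed sign were those of Tcf7l1 (-0.089), Cst6 (-0.87), Bambi (-0.15) and Dpt (0.94) without Cd34 in the rule, of Defb6 with at least 2 (1.24) or 5 (0.36) UMIs of the selection genes, of Mki67 (0.83) and Krt16 (0.030) as a mean over cells, and of Bambi (-0.68), Mki67 (1.73) and Krt16 (0.065) with each cell thinned to 2000 UMIs. Dpt was also at 0.13 without the highest doublet scores and at 0.50 without cluster 3. The cause was not tested.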
